A study of Mus musculus with 17 samples.

Results

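The Th1 genes described here are Ifng, the T-box transcription factor genes Tbx21 and Eomes, the IL-18 receptor genes Il18r1 and Il18rap, and the IL-12 receptor genes Il12rb1 and Il12rb2. They were chosen by name, as all probe sets that the platform's gene table assigns to these 7 symbols, which gave 9 of the 45101 probe sets and 7 of the 18194 genes with a probe set of their own. The series holds 17 Affymetrix mouse arrays in 8 groups and asks how retinoic acid (RA), a metabolite of vitamin A, bears on the induction of Foxp3 in CD4 T cells. One experiment profiled memory cells that inhibit this induction, and the other profiled T cells taken from co-cultures with dendritic cells (DC).

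In the memory experiment, CD44hiCD62L-CD25- CD4 cells from spleen and lymph nodes of C57BL/6 mice were kept for 48 h with congenic naive cells at 2 memory cells per naive cell, and the 2 populations could be told apart by CD45.1 and CD45.2. Both memory groups received anti-CD3/CD28 beads, 20 U/ml of IL-2 and 10 ng/ml of TGFbeta, and 1 of them also received 100 nM RA, with 3 arrays a group. In the co-culture experiment, Foxp3- CD4 cells from spleens of C57BL/6-Foxp3/GFP reporter mice were stimulated for 5 days with 1 ug/ml of anti-CD3, 0.6 ng/ml of TGFbeta and 5 ng/ml of IL-2 at 10 T cells per DC, then sorted by GFP into Foxp3+ and Foxp3- cells. The DC came from the lamina propria of the gut (LP-DC), or from the spleen with 100 nM RA (Sp-DC plus RA) or without it (Sp-DC), so there were 6 co-culture groups. Each co-culture group has 2 arrays except Foxp3- cells from Sp-DC plus RA, of which 1 array was analysed here. Every array holds RNA from pooled male mice aged 6 to 10 weeks, 3 mice a pool, so TGFbeta, IL-2 and T cell receptor stimulation are common to all 8 groups. No group without TGFbeta is part of the comparisons.

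Th1 cells are the CD4 T helper cells known for defence against intracellular microbes, and their signature product is interferon gamma, the protein of Ifng. Tbx21 encodes T-bet, the factor that defines the lineage and activates Ifng and Il12rb2, and Eomes encodes eomesodermin, a related T-box factor best known from CD8 and natural killer (NK) cells. IL-12 acts through a receptor of the Il12rb1 and Il12rb2 chains and activates STAT4, while IL-18 acts through Il18r1, which binds the cytokine, and Il18rap, the accessory chain that is needed for signalling. Il12rb1 is also a chain of the IL-23 receptor, so it is not a marker of Th1 cells alone. TGFbeta is known to restrain T-bet and interferon gamma in CD4 T cells.

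The promoters of the 4 members that passed a test in any of the RA comparisons are shown first, since retinoic acid receptors, STAT proteins, T-box factors and NFAT act on genes through DNA. They are RefSeq sequences of GRCm38.p6, from 250 bases before to 50 bases after the annotated start, written from 5′ to 3′ on the strand of the gene. Capitals mark the letters found in a search of both strands for TCACAC (a T-box element), TTCNNNGAA (STAT), GGAAA (NFAT core), TGANTCA (AP-1), and the retinoic acid response elements DR5 and DR2, which are AGGTCA repeated in the same direction after 5 or 2 bases. No search letters overlapped another match in these stretches. The stretches are chr10:118440796-118441095 (plus strand) for Ifng, chr11:97115282-97115581 (minus strand) for Tbx21, chr9:118477939-118478238 (plus strand) for Eomes, and chr1:40465302-40465601 (plus strand) for the first of 3 annotated start sites of Il18r1.
Ifng: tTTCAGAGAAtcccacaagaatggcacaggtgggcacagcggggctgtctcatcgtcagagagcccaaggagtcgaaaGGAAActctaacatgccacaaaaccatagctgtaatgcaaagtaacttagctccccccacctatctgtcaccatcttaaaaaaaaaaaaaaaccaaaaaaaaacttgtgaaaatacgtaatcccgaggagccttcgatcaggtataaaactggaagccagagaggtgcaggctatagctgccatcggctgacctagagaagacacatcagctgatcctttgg
Tbx21: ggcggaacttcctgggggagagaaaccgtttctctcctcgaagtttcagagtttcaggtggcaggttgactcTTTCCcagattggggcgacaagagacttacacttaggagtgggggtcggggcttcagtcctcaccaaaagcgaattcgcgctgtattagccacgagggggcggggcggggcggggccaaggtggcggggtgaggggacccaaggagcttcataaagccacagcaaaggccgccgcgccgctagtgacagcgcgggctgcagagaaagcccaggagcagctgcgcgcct
Eomes: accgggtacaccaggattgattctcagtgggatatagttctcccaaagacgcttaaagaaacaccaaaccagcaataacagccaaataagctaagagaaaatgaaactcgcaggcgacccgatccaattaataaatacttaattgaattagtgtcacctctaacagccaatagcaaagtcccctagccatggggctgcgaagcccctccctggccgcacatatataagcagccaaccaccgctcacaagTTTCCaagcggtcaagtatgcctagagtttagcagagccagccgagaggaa
Il18r1: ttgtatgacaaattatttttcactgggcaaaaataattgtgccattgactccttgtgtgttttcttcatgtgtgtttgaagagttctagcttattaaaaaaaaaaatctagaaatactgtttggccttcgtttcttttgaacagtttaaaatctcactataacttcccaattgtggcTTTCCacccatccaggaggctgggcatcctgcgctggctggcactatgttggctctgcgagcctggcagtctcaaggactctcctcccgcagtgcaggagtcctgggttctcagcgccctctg
The Ifng promoter held the STAT letters from position -249 and the NFAT core from -172, counted from the annotated start, and the other 3 held the NFAT core alone, in Tbx21 from -178, in Eomes from -1 and in Il18r1 from -73. The Il18r1 stretch shown is that of its first start site, and the stretch at its annotated start site 3 held the STAT letters from -219 and -152 beside the NFAT core from -32. Of all 32851 promoters of the same length, 61.3% held the NFAT core, so that match is a common one, and 8.30% held the STAT letters. Il12rb2, not shown, also held the STAT letters, from -123. Among the 6 members with a promoter in the table, 1 held the T-box element, Il12rb2 at position -80, against 14.5% of all promoters. Neither retinoic acid element was found with these exact letters in a member's window. Each was found in 3 promoters, or 0.00913% of them, so absence was the usual result. The letters searched are short, and a match or its absence in 300 bases is a description of the sequence only. The other members lie at chr1:40515362-40551707 (Il18rap, downstream of Il18r1 at chr1:40465552-40500854), chr8:70808360-70823542 (Il12rb1) and chr6:67285986-67376293 (Il12rb2).

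All values are log2 of the deposited RMA values (robust multi-array average, a summary of the probes of a probe set), 1 unit being a 2-fold difference. Where a gene has several probe sets, the one with the highest mean represents it, and the other probe set of Eomes and of Il18rap is reported beside it. Levels of different probe sets cannot be set against each other, because each binds its target with its own efficiency. Genes had to exceed the median of an array on 2 or more arrays of an experiment to be tested there, and all 7 members did so in both. Array medians ran from 5.88 to 5.98. Each difference was tested with limma across all genes, once without regard to the array numbers (the unpaired fit) and once blocked on them (the paired fit), at an adjusted p of 0.05 by Benjamini-Hochberg. Nothing says that the arrays of a group came from separate experiments, so p-values measure the spread between these arrays. Arrays of the same number deviated together from their group means, with correlations of 0.65 to 0.94 over the 3 memory pairs and 0.45 to 0.75 over the co-culture pairs. Memory arrays of different numbers correlated at 0.65 and 0.79 where the numbers were 1 and 2, and at -0.88 to -0.73 where one was 3, so this measure set number 3 apart and did not tell number 1 from number 2. In co-culture the groups have at most 2 arrays, so the values for different numbers are the same ones with the sign turned. The memory arrays numbered 3 stood apart, correlating at 0.923 to 0.941 with the others of their group and at 0.990 with each other. In the unpaired fit no member passed the threshold in any of the 14 comparisons, so every call of a member below comes from the paired fit, apart from those on the second Eomes probe set and 1 for Eomes by the mean of its probe sets (RA in Foxp3+ cells, -1.85, unpaired limma adjusted p = 0.0309).

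The labelled cell types were checked against their markers. Of the 8 CD4 T cell markers listed, 6 were found by name, and all 6, Cd4 and Cd3e among them, lay above the median on every array. Of the 9 genes of the NK list 8 were found, and they summed on the linear scale to 720 to 1675 on the arrays of Foxp3+ cells and to 3306 to 4865 on those of Foxp3- cells, with Klrd1 and Gzma carrying the difference. Of these genes 5, Ncr1, Klra8, Prf1, Tyrobp and Fcer1g, lay below the median on all 17 arrays. The Foxp3 probe set read 3.88 to 4.53 on all co-culture arrays, below every array median, and 7.08 to 9.14 on the memory arrays, so it gives no check of the GFP sort.

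Ifng and Tbx21 had their highest group means in the memory cells without RA, Eomes had its lowest in the memory cells, and Il18r1 was lowest where RA had been added. Across all arrays Ifng ran from 5.15 to 10.31, the widest range of the 7 representative probe sets, and Il12rb2 from 5.86 to 6.98, the narrowest. The Ifng order was memory cells without RA, then memory cells with RA, then 4 co-culture groups whose neighbours overlapped, then LP-DC Foxp3+ cells and Sp-DC plus RA Foxp3+ cells, which overlapped each other and lay below the array medians. Neighbours in this order were separated at 2 places, below memory cells without RA and above LP-DC Foxp3+ cells.

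For Tbx21 the order was memory cells without RA, memory cells with RA, Sp-DC Foxp3- cells and LP-DC Foxp3- cells, with no overlap between neighbours, followed after another gap by 4 groups that overlapped in turn. Eomes ran the other way, from Sp-DC Foxp3+ cells at a mean of 9.65 to memory cells with RA at 6.36, and the gaps lay below LP-DC Foxp3+ cells and above the memory groups. The 4 co-culture groups without added RA were the highest for Il18r1, with means of 9.77 to 10.24 and no gap among them, and the 3 groups with RA, at 8.02 to 8.16, lay below memory cells without RA, at 8.85. Il18rap had its lowest means in the memory groups, 6.88 with RA and 6.79 without, and neighbours in its order overlapped throughout. For Il12rb1 the one gap between neighbours lay below memory cells without RA, and for Il12rb2 neighbours overlapped or nearly met. Memory and co-culture cells differ in source, stimulus and time, so their levels were not tested against each other.

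**Figure D1:**
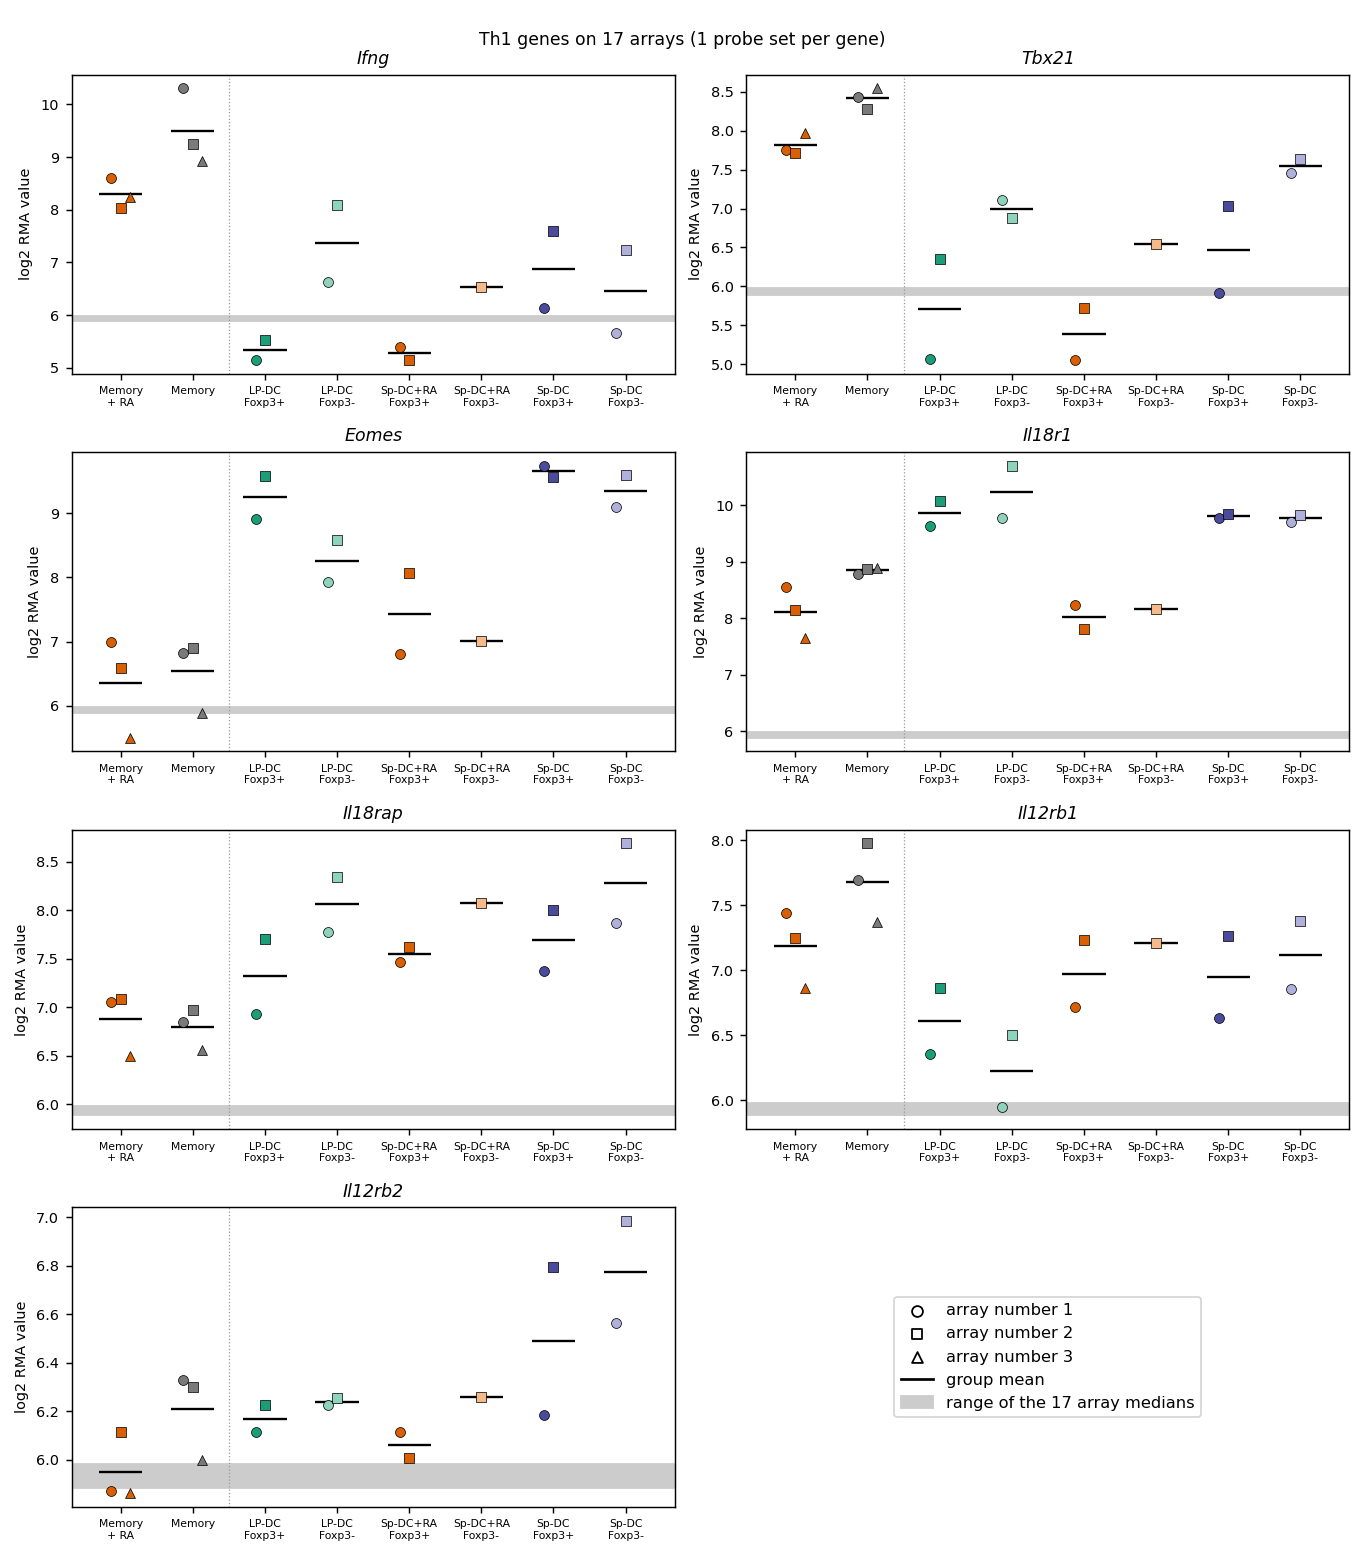
Log2 RMA value (y axis) of 1 probe set for each of the 7 Th1 genes on each of 17 arrays, by group (x axis), with circles, squares and triangles for array numbers 1, 2 and 3, black lines for group means and a grey band for the range of the array medians. Ifng and Tbx21 are highest in memory cells without RA, Eomes is lowest in the memory groups, and Il18r1 lies at 8.56 or below in all groups with RA and at 9.63 or above in all co-culture groups without added RA.

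The first comparison asks what RA changed in memory cells held under TGFbeta. Ifng and Tbx21 were lower with RA in the paired fit, the accessory IL-18 receptor chain and Eomes were near their untreated levels, and Il18r1, Il12rb1 and Il12rb2 had lower means that did not pass. In all, 6 of the 7 members had a negative difference, and the members' median was -0.49, against a median of -0.00042 over all 12062 genes tested. The paired fit called 2 members, both lower, where 4.94% of all genes were called and 2.34% were called lower. The unpaired fit called 0 members and 0.0829% of genes, and at an unadjusted p of 0.05 it counted 3 members against 4.10% of genes.

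Ifng read 8.60, 8.03 and 8.24 in memory cells with RA, against 10.31, 9.25 and 8.92 in memory cells without RA. The groups did not overlap, and the untreated array of number 1 was the highest of all 17. The means were 8.29 ± 0.29 with RA and 9.49 ± 0.73 without (SD, n = 3 each), and the difference was -1.20 ± 0.19 (SE, paired fit), a 2.30-fold lower value. Its limma adjusted p was 0.00521 in the paired and 0.763 in the unpaired fit. Within the pairs of numbers 1, 2 and 3 Ifng differed by -1.70, -1.21 and -0.69, all downwards but of unequal size. In bulk RNA, fewer cells that express a gene and less RNA per cell cannot be told apart, here and in every comparison that follows. This call held in each of 9 alternatives of the paired fit, with a highest adjusted p of 0.0312, and in each of the 6 fits that left out 1 array.

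Tbx21 read 7.75, 7.72 and 7.97 in memory cells with RA, against 8.43, 8.28 and 8.55 in memory cells without RA. Every treated array lay below every untreated one, and the pairs differed by -0.68, -0.56 and -0.58. The difference was -0.61 ± 0.13 (SE, paired fit), 1.52-fold lower, with limma adjusted p-values of 0.0254 in the paired and 0.660 in the unpaired fit. The Tbx21 call was lost when any of the arrays numbered 1 or 3 was left out, and with 1 fit over all 17 arrays, while the difference stayed between -0.63 and -0.57 in the fits without 1 array. Without both arrays numbered 3 its adjusted p was 0.188.

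The other T-box gene, Eomes, read 6.99, 6.59 and 5.50 with RA, against 6.82, 6.90 and 5.88 without. Both arrays numbered 3 were low and the groups overlapped, with a difference of -0.17 ± 0.15 (adjusted p = 0.668, paired limma fit).

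Il18r1 read 8.56, 8.14 and 7.65 with RA, against 8.77, 8.87 and 8.89 without. The groups did not overlap, but the treated arrays were spread over nearly a log2 unit while the untreated ones were close together. The difference of -0.73 ± 0.19 had a paired adjusted p of 0.0608 in limma and did not pass. Counting Ifng, Tbx21 and Il18r1, 3 of the 7 members had lower groups without overlap, where 3.56% of all genes did.

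Il18rap differed by 0.09 ± 0.13 and its other probe set by 0.34, and neither passed. Il12rb1, the chain shared by the IL-12 and IL-23 receptors, read 7.44, 7.25 and 6.87 with RA, against 7.70, 7.98 and 7.37 without, so each pair was lower with RA while the groups overlapped. Its difference was -0.49 ± 0.14 (paired limma adjusted p = 0.0913). Il12rb2, the chain that Th1 cells induce, differed by -0.26 ± 0.13 (adjusted p = 0.407), and the groups overlapped.

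Around these members, genes of the same pathway moved in both directions. Of the IL-12 family list, 7 of 12 genes were tested and 1 passed in the paired fit, Stat4, the factor activated by the IL-12 receptor, which was higher with RA by 0.99. Of the interferon gamma list 1 of 10 tested genes passed, Ifngr1, the ligand-binding chain of the interferon gamma receptor, higher by 1.60. Il1r2, the decoy receptor for IL-1, was the one of 8 tested genes of the IL-18 and IL-1 list that passed, at -1.92. Among 12 other Th1 regulators 2 rose (Runx1, 1.08, and Id2, 0.55) and 2 fell (Prdm1, which encodes the repressor Blimp-1, -1.08, and Bhlhe40, -0.56).

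The effector and trafficking list had 4 genes higher and 1 lower of 12 tested, with a median difference of 0.39. Nkg7, a cytotoxic granule gene, was higher by 1.76, Fasl by 1.32 and Selplg, the P-selectin ligand, by 0.60, while Gzmb, which encodes granzyme B, was at -0.67. Of 9 tested regulators of other helper lineages 1 rose, Gfi1, by 3.06, and it is the one listed gene that passed in both fits (adjusted p = 0.00814 in the unpaired limma fit), while Satb1 (-1.73), Nfil3 (-1.14), Ahr (-1.07) and Gata3 (-0.93) fell in the paired fit. Ifng and Tbx21 were thus lower in samples in which Stat4, Ifngr1, Fasl and Nkg7 were higher and Gzmb, Prdm1 and Bhlhe40 were lower. All of these are calls of the paired fit alone. Of the NK list, Klrd1 was higher with RA by 0.87 (adjusted p = 0.00726, paired limma fit), and the list's sums were 452 to 633 with RA and 447 to 519 without. Of the T cell markers Cd3e was at 0.57 and Cd2 at -0.65, both called in the paired limma fit. The part of other cell types in these differences was not tested.

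The next comparison asks what RA changed in T cells cultured with Sp-DC. In Foxp3+ cells Eomes and Il18r1 fell more than 3-fold in the paired fit, Ifng and Tbx21 had lower means that did not pass, and Il18rap and Il12rb1 were near their untreated levels. In Foxp3+ cells 6 of 7 members had a negative difference, with a median of -1.08 against -0.0022 over all 11846 genes tested. Both calls were downwards, and 1.12% of all genes were called in the paired fit, 0.507% as lower, against 0 members and 0.101% of genes in the unpaired fit. At an unadjusted p of 0.05 the unpaired limma fit counted 3 members and 4.81% of genes.

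Eomes read 6.80 and 8.06 in Sp-DC plus RA Foxp3+ cells, against 9.74 and 9.56 in Sp-DC Foxp3+ cells. The groups stood more than a log2 unit apart, and the array of number 1 was the lower of the treated ones. The difference was -2.22 ± 0.26 (SE, paired fit), 4.66-fold lower, with limma adjusted p-values of 0.00405 in the paired and 0.217 in the unpaired fit. It passed in all 8 alternatives of the paired fit and in the 4 fits without 1 array, where it ranged from -2.69 to -1.75.

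The second Eomes probe set read 6.31 and 6.13 with RA, against 7.62 and 7.80 without. It had the same direction and less spread, and in a fit over all 20131 probe sets that passed the filter its difference of -1.49 had limma adjusted p-values of 0.0176 in the unpaired and 0.000926 in the paired fit. It is the one member probe set that passed an unpaired test of RA.

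Il18r1 read 8.24 and 7.80 in Sp-DC plus RA Foxp3+ cells, against 9.77 and 9.85 in Sp-DC Foxp3+ cells. Both treated arrays lay well below both untreated arrays, and the difference was -1.79 ± 0.26, 3.47-fold lower. The limma adjusted p was 0.0103 in the paired and 0.121 in the unpaired fit. The call was lost when either array numbered 2, with RA or without, was left out, and over the 4 fits without 1 array the difference ranged from -2.21 to -1.38.

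Ifng read 5.39 and 5.15 in Sp-DC plus RA Foxp3+ cells, against 6.14 and 7.60 in Sp-DC Foxp3+ cells. Both treated arrays lay below the array medians, and the untreated arrays differed from each other by 1.47. The difference of -1.60 ± 0.39 had a paired limma adjusted p of 0.107. Tbx21 read 5.05 and 5.72 with RA, against 5.91 and 7.03 without, and the difference of -1.08 ± 0.31 (adjusted p = 0.176) did not pass either.

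Il12rb2 read 6.11 and 6.00 with RA, against 6.18 and 6.79 without, a difference of -0.43 ± 0.18 (paired limma adjusted p = 0.353). Without overlap between the groups were 5 members, Ifng, Tbx21, Eomes, Il18r1 and Il12rb2, all lower with RA, where 12.2% of all genes were. Il18rap differed by -0.14 ± 0.17 and Il12rb1 by 0.02 ± 0.12, and the groups overlapped for both.

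In Foxp3- cells 1 array with RA could be set against 2 without it, so its own spread is assumed to be that of the other groups. Eomes read 7.0 in Sp-DC plus RA Foxp3- cells, against 9.10 and 9.59 in Sp-DC Foxp3- cells. The treated array lay below both, with a difference of -2.63 ± 0.33 in the paired fit, 6.19-fold lower (limma adjusted p = 0.0136), and of -2.34 in the unpaired fit (0.619). This was the one member called, where the paired fit called 0.262% of all genes, 0.110% as lower, and the unpaired fit 0.00844%. The unpaired fit counted 2 members and 2.47% of genes at an unadjusted p of 0.05. The call was lost when either Sp-DC Foxp3- array was left out. The second Eomes probe set read 5.83 with RA, against 7.05 and 7.20 without, and its difference of -1.32 passed in the paired fit over all probe sets (limma adjusted p = 0.0198 paired, 0.183 unpaired).

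Il18r1 read 8.16 in Sp-DC plus RA Foxp3- cells, against 9.71 and 9.83 in Sp-DC Foxp3- cells, and its difference of -1.72 ± 0.32 had a paired limma adjusted p of 0.0897. Ifng read 6.53 with RA, between the 5.66 and 7.24 of the arrays without. Tbx21 read 6.54 with RA, against 7.46 and 7.64 without, and its difference of -1.31 ± 0.40 (adjusted p = 0.403) did not pass. For 4 members, Eomes, Il18r1, Tbx21 and Il12rb2, the treated array lay below both others, where 21.9% of all genes did so.

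Whether RA acted differently in the 2 sorted fractions was tested as an interaction, and no member passed (0.00% of all genes in either fit). For Ifng the interaction was -1.21 ± 0.63 in the paired fit with an adjusted p of 1.00, and for Eomes it was 0.41 ± 0.42. At an unadjusted p of 0.05 the unpaired limma fit counted 0 members and 0.464% of genes.

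Whether RA acted differently in memory and in Foxp3+ cells was tested in 1 fit over both experiments. The experiments also differ in TGFbeta (10 against 0.6 ng/ml), IL-2, stimulus (beads against DC with anti-CD3) and time (48 h against 5 days). A difference of cell type cannot be told apart from these. Eomes differed by 2.05 ± 0.32 between them, -0.17 in memory cells against -2.22 in Foxp3+ cells, with limma adjusted p-values of 0.00671 in the paired and 1.00 in the unpaired fit. It was the one member called, where 1.41% of 11432 genes were called in the paired fit, 0.840% as higher, and 0.0525% in the unpaired fit. This call held in all 7 alternatives of the paired fit and in all 10 fits without 1 array. The Eomes mean of memory cells without RA, 6.53, was below that of Sp-DC plus RA Foxp3+ cells, 7.43, and its second probe set lay under the filter in memory cells. Between the same responses Klrd1 of the NK list differed by 2.29 (paired limma adjusted p = 0.00180). Gzma of that list ran the other way, with means of 7.34 with RA and 7.38 without in memory cells. In Foxp3+ cells its means were 9.05 with RA and 7.57 without. The part of the NK list in the Eomes result was not tested. Il18r1 differed by 1.06 ± 0.35 between the experiments (adjusted p = 0.20), and Ifng and Tbx21 by 0.40 and 0.48, and none of these passed. At an unadjusted p of 0.05 the unpaired limma fit counted 2 members and 2.55% of genes.

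Pathway genes whose response to RA differed between memory and Foxp3+ cells were Gfi1, a transcriptional repressor of T helper cells, by 2.15 in both fits (unpaired limma adjusted p = 0.0266), and 7 more in the paired fit alone. Nkg7 (2.89) and Hopx (1.88) of the effector list, Ifngr1 (1.75) and Stat4 (1.08) had the higher response in memory cells. Satb1 (-1.65), Il1r2 (-1.46) and Ahr (-1.26) had the lower one. None of the 12 other Th1 regulators passed.

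**Figure D2:**
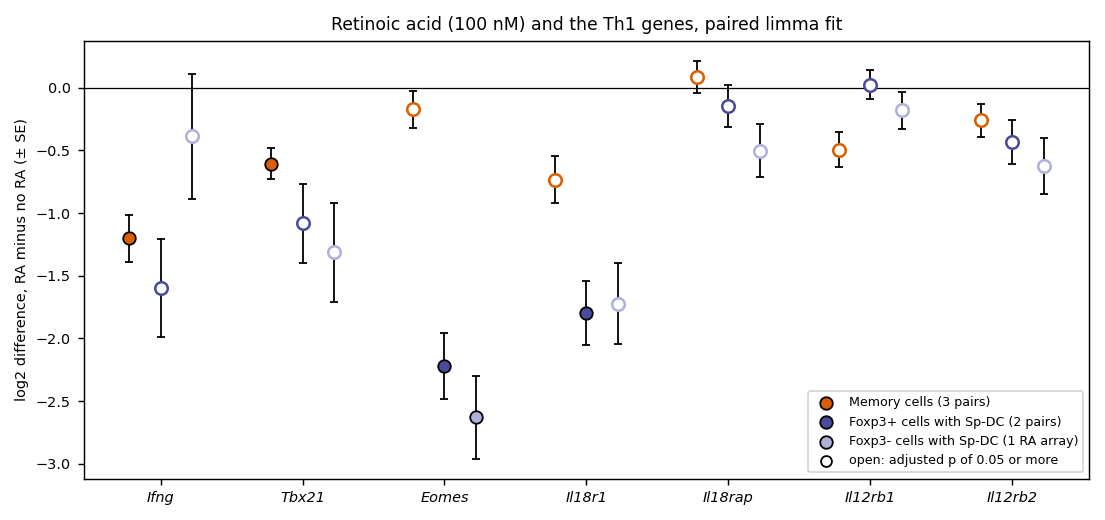
Log2 difference, RA minus no RA, from the paired limma fit with its SE (y axis) for each Th1 gene (x axis), in memory cells (3 pairs), Foxp3+ cells with Sp-DC (2 pairs) and Foxp3- cells with Sp-DC (1 RA array), with filled points for an adjusted p under 0.05. Ifng and Tbx21 are filled in memory cells, at -1.20 and -0.61, while Eomes and Il18r1 are filled in Foxp3+ cells, at -2.22 and -1.79, and Eomes in Foxp3- cells, at -2.63.

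Of the pathway genes around the members, 5 passed in the paired fit for RA in Foxp3+ cells. Among 11 tested effector genes it was Hopx, which Th1 cells express, at -1.49. Of 9 tested interferon gamma genes 1 passed, Gbp2, an interferon-induced GTPase, at -1.13, and of 12 other Th1 regulators 1, Prdm1, at -1.02. Of 7 tested IL-12 family genes Ebi3, a subunit shared by IL-27 and IL-35, was higher by 1.06, and of 8 tested regulators of other lineages Maf was at -1.20. None of the 8 tested IL-18 and IL-1 genes passed. The NK list summed to 841 to 1277 in Sp-DC plus RA Foxp3+ cells and to 762 to 1675 in Sp-DC Foxp3+ cells, and its member Klrd1 had a difference of -1.43 (paired limma adjusted p = 0.0232). Gzma of the same list ran the other way, with means of 9.05 with RA and 7.57 without. The list's part in the fall of Eomes was not tested.

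Gut DC include cells that make RA, and the comparison of LP-DC with Sp-DC asks what they changed in the T cells without added RA. In Foxp3+ cells no member passed, although Ifng had a lower mean, and in Foxp3- cells Il12rb1 fell in the paired fit. Neither Eomes nor Il18r1, the genes called lower with added RA, passed in either fraction by its representative probe set. This comparison uses the same Sp-DC arrays as the RA comparison, so the 2 are not independent.

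Ifng read 5.15 and 5.52 in LP-DC Foxp3+ cells, against 6.14 and 7.60 in Sp-DC Foxp3+ cells. Both LP-DC arrays lay below both Sp-DC arrays, and the difference was -1.54 ± 0.39 (paired limma adjusted p = 0.0733). By the representative probe sets Ifng was the one of the 7 members without overlap, where 18.5% of all genes were lower without overlap. No member was called, where 1.81% of all genes were called in the paired and 0.00% in the unpaired fit, and at an unadjusted p of 0.05 the unpaired fit counted 1 member and 7.99% of genes. The members' median was -0.37, against 0.0052 over all genes.

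Tbx21 read 5.07 and 6.36 in LP-DC Foxp3+ cells, against 5.91 and 7.03 in Sp-DC Foxp3+ cells, with a difference of -0.76 ± 0.31 (adjusted p = 0.228, paired limma fit). Both pairs were lower with LP-DC (-0.84 and -0.68), while the groups overlapped. Eomes read 8.91 and 9.58 with LP-DC, against 9.74 and 9.56 with Sp-DC, a difference of -0.41 ± 0.26. Its second probe set read 7.01 and 7.10, against 7.62 and 7.80, lower without overlap. The difference of -0.65 did not pass in the fit over all probe sets (adjusted p = 0.0550, paired limma fit). Il18r1 read 9.63 and 10.08, against 9.77 and 9.85, and its difference of 0.04 ± 0.26 was the nearest to 0 of the 7.

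In Foxp3- cells Il12rb1 read 5.95 and 6.5 with LP-DC, against 6.86 and 7.38 with Sp-DC. The pairs differed by -0.90 and -0.88, nearly alike, and the difference of -0.89 ± 0.12, 1.85-fold lower, had limma adjusted p-values of 0.0258 in the paired and 0.669 in the unpaired fit. It was the one member called, where the paired fit called 0.861% of genes, 0.650% as lower, and the unpaired fit 0.00%, and at an unadjusted p of 0.05 the unpaired limma fit counted 3 members and 6.70% of genes. The call was lost without LP-DC Foxp3- array 2 or either Sp-DC Foxp3- array. For 4 members, Eomes, Tbx21, Il12rb1 and Il12rb2, LP-DC arrays lay below Sp-DC arrays without overlap, where 17.8% of all genes did so.

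Eomes read 7.92 and 8.58 in LP-DC Foxp3- cells, against 9.10 and 9.59 in Sp-DC Foxp3- cells, and its difference of -1.09 ± 0.26 did not pass (adjusted p = 0.0765, paired limma fit). The second Eomes probe set read 6.30 and 6.37, against 7.05 and 7.20, and passed in the paired fit over all probe sets (-0.79, adjusted p = 0.0451). Il12rb2 read 6.22 and 6.25 in LP-DC Foxp3- cells, against 6.57 and 6.98 in Sp-DC Foxp3- cells, a difference of -0.53 ± 0.18 that did not pass (adjusted p = 0.164). H2-Ab1, a gene of antigen-presenting cells, had a difference of -1.28 in the Foxp3- fraction (paired limma adjusted p = 0.0403), the dendritic list summing to 886 to 1028 with LP-DC and to 1392 to 2114 with Sp-DC. H2-Ab1 carried these sums, with means of 9.01 with LP-DC and 10.29 with Sp-DC, while Flt3 (6.45 and 6.39), Itgax (5.47 and 5.48) and Cd74 (6.47 and 6.54) were near level. The part of residual DC in the lower Il12rb1 and Eomes values was not tested.

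Ifng read 6.63 and 8.08 in LP-DC Foxp3- cells, against 5.66 and 7.24 in Sp-DC Foxp3- cells, higher in both pairs, by 0.97 and 0.84, with overlap of the groups. In Foxp3+ cells both pairs had gone the other way, by -0.99 and -2.08. The interaction was -2.44 ± 0.55 in the paired fit, and with limma adjusted p-values of 0.521 in the paired and 1.00 in the unpaired fit it did not pass. No member was called in this interaction, and neither was any of the 11846 genes (0.00% in either fit), while at an unadjusted p of 0.05 the unpaired fit counted Ifng and 0.912% of genes.

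Pathway genes that passed between LP-DC and Sp-DC in Foxp3+ cells were Jak2 (0.85) and Il27ra (0.71) of the IL-12 family, Gbp2 (0.92) of the interferon gamma list, and Irf4 (1.10), Id2 (-1.65) and Prdm1 (-0.86) of the other Th1 regulators. Of the effector genes Gzmb (-1.84) and Nkg7 (-1.70) passed, and of the regulators of other lineages Maf (-1.83) and Nfil3 (-1.68). Gzmb also passed in Foxp3- cells (-1.89), where Hopx (-0.92) and Il27ra (0.61) also passed. These are paired limma calls, and none of them passed in the unpaired fit.

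LP-DC cultures were next set against Sp-DC cultures with RA, to ask whether added RA and gut DC left the members at the same levels. Eomes and Il18r1 were higher with LP-DC in Foxp3+ cells, and Il18r1 in Foxp3- cells, all in the paired fit. Eomes read 8.91 and 9.58 in LP-DC Foxp3+ cells, against 6.80 and 8.06 in Sp-DC plus RA Foxp3+ cells. The difference was 1.81 ± 0.26, 3.52-fold higher (limma adjusted p = 0.00962 paired, 0.309 unpaired), and its second probe set was higher by 0.84 (adjusted p = 0.0196, paired).

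Il18r1 read 9.63 and 10.08 in LP-DC Foxp3+ cells, against 8.24 and 7.80 in Sp-DC plus RA Foxp3+ cells. The groups stood more than a log2 unit apart, with a difference of 1.83 ± 0.26, 3.57-fold higher (limma adjusted p = 0.00871 paired, 0.100 unpaired). These 2 members were called, where the paired fit called 1.87% of genes, 1.11% as higher, and the unpaired fit 0.0929%, and they were the 2 members without overlap, where 15.5% of genes were higher without overlap. The unpaired fit counted 2 members and 5.74% of genes at an unadjusted p of 0.05. Both calls were lost without LP-DC Foxp3+ array 2, the Eomes call without Sp-DC plus RA Foxp3+ array 1, and the Il18r1 call without Sp-DC plus RA Foxp3+ array 2. Ifng differed by 0.06 ± 0.39 and Tbx21 by 0.32 ± 0.31, and neither passed (limma adjusted p = 0.970 and 0.740, paired), and both groups lay near or under the array medians for Ifng.

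In Foxp3- cells Il18r1 read 9.78 and 10.70 with LP-DC, against 8.16 on the one array of Sp-DC plus RA. The difference was 2.19 ± 0.32, 4.57-fold higher (limma adjusted p = 0.0210 paired, 0.254 unpaired), and it was lost without LP-DC Foxp3- array 2. It was the one member called, where the paired fit called 0.523% of genes, 0.186% as higher, and the unpaired fit 0.00%, and at an unadjusted p of 0.05 the unpaired limma fit counted 3 members and 6.21% of genes. Eomes differed by 1.54 ± 0.33 (adjusted p = 0.0883) and Il12rb1 by -0.71 ± 0.15 (adjusted p = 0.0852), and neither passed. Between the same Foxp3- groups H2-Ab1 differed by -1.47 and Klrd1 by 1.78, and between the Foxp3+ groups Cd8a differed by -1.34 and Adgre1, a macrophage gene, by -1.51, all called in the paired limma fit. Gzma had a mean of 10.07 in LP-DC Foxp3- cells and 11.22 in Sp-DC plus RA Foxp3- cells, the opposite direction to Klrd1. In the Foxp3+ groups the other macrophage genes were near level, Csf1r at means of 6.81 with LP-DC and 6.78 with Sp-DC plus RA and Fcgr1 at 6.82 in both, and so was Cd8b1, at 5.27 and 5.32. The part of other cell types in the Il18r1 and Eomes differences was not tested. This comparison shares its Sp-DC plus RA arrays with the RA comparison, and in particular the low Eomes and Il18r1 values there serve both.

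Of the pathway genes, 7 passed between LP-DC and Sp-DC plus RA in Foxp3+ cells. Gbp2 (2.05) and Igtp (0.84), both interferon-induced GTPases, were higher with LP-DC and Irf8 was lower (-0.94), 3 of 9 tested interferon gamma genes. Batf (0.88) of the other Th1 regulators and Hopx (0.89) of the effector genes were higher, and Gzmb (-1.62) and Gfi1 (-1.04) were lower. In Foxp3- cells Gzmb (-1.95) and Ebi3 (-1.86) passed, both lower with LP-DC. All of these are paired limma calls, and none passed in the unpaired fit.

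The sort compares Foxp3+ with Foxp3- cells of the same culture. Tbx21 and Il18rap were lower in Foxp3+ cells in the paired fit of the mean over the 3 cultures, Ifng was lower in the LP-DC culture, and Eomes had a higher mean in Foxp3+ cells. The 2 T-box genes thus lay on opposite sides of the sort. The paired fit of the mean called 2 members, both lower, where 4.79% of genes were called and 2.16% were called lower, and the unpaired fit called 0 members and 0.920% of genes. At an unadjusted p of 0.05 the unpaired limma fit counted 3 members and 8.09% of genes.

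Tbx21 read 5.07 and 6.36 in LP-DC Foxp3+ cells, against 7.10 and 6.87 in LP-DC Foxp3- cells. With Sp-DC it read 5.91 and 7.03 in Foxp3+ cells, against 7.46 and 7.64 in Foxp3- cells, and with Sp-DC plus RA 5.05 and 5.72, against 6.54. With LP-DC the fractions did not overlap, where 14.5% of genes were lower without overlap. All 5 pairs of equal number were lower in Foxp3+ cells, with differences from -2.04 to -0.52, where 9.66% of genes were lower in all 5. The mean difference was -1.07 ± 0.20, 2.10-fold lower, with limma adjusted p-values of 0.0129 in the paired and 0.169 in the unpaired fit. The call was lost without either Sp-DC plus RA Foxp3+ array or without Sp-DC Foxp3- array 1, with differences of -1.24 to -0.86 over the 10 fits without 1 array.

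Il18rap read 6.93 and 7.71 in LP-DC Foxp3+ cells, against 7.78 and 8.34 in LP-DC Foxp3- cells. All 5 pairs were lower in Foxp3+ cells, with differences from -0.85 to -0.45, and the mean difference was -0.52 ± 0.11, 1.43-fold lower (limma adjusted p = 0.0206 paired, 0.483 unpaired). The other Il18rap probe set was also lower in all 5 pairs, from -0.60 to -0.15, but its mean difference of -0.21 did not pass (adjusted p = 0.472), and with the mean of both probe sets the gene was not called. The call was also lost without LP-DC Foxp3- array 1 or Sp-DC Foxp3- array 2. Il18r1, its partner in the IL-18 receptor, was lower in 3 of the 5 pairs, with a mean difference of -0.12 ± 0.16.

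Eomes on its representative probe set was higher in Foxp3+ cells in 4 of 5 pairs, with a mean difference of 0.67 ± 0.17 that missed the threshold (limma adjusted p = 0.0508, paired). Its second probe set read 7.01 and 7.10 in LP-DC Foxp3+ cells, against 6.30 and 6.37 in LP-DC Foxp3- cells, and was higher in all 5 pairs, by 0.30 to 0.73. In the fit over all probe sets its mean difference was 0.56 in the unpaired fit (limma adjusted p = 0.0484) and 0.57 in the paired fit (0.00529). In the LP-DC culture alone its difference was 0.72 (limma adjusted p = 0.0210 paired, 0.144 unpaired). Both probe sets of Eomes thus had higher means in Foxp3+ cells, and 1 of them passed in both fits.

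Ifng had no common direction. It read 5.15 and 5.52 in LP-DC Foxp3+ cells, against 6.63 and 8.08 in LP-DC Foxp3- cells, and the difference of -2.03 ± 0.39 was 4.07-fold lower (limma adjusted p = 0.0218 paired, 0.450 unpaired). With Sp-DC it read 6.14 and 7.60 in Foxp3+ cells, against 5.66 and 7.24 in Foxp3- cells, so both pairs were higher in Foxp3+ cells, by 0.47 and 0.36. The LP-DC call was lost without either LP-DC array numbered 2. Over the 3 cultures the mean difference was -0.80 ± 0.25 (adjusted p = 0.127).

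In the LP-DC culture alone Ifng and Il18rap were called lower, where the paired fit called 3.58% of genes, 1.18% as lower, and the unpaired fit 0.135%. The unpaired fit counted 3 members and 6.03% of genes at an unadjusted p of 0.05. Il18rap differed there by -0.74 ± 0.17 (limma adjusted p = 0.0421, paired), a call lost without any 1 of the 4 arrays and under 3 other alternatives. With LP-DC, 3 members, Ifng, Tbx21 and Il18rap, were lower without overlap, where 14.5% of genes were, and Eomes was higher without overlap, where 14.8% were. In the Sp-DC culture no member was called (0.557% of genes in the paired and 0.00% in the unpaired fit), and neither was any in the Sp-DC plus RA culture (0.0253% and 0.00%). At an unadjusted p of 0.05 the unpaired limma fit counted 0 members in both of these, with 3.54% and 1.67% of genes.

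The IL-12 receptor chains had small differences between the fractions, none of which passed. Il12rb1 was higher in Foxp3+ cells in 3 of 5 pairs, with a mean difference of 0.08 ± 0.07. Il12rb2 was lower in all 5 pairs, from -0.38 to -0.03, with a mean difference of -0.15 ± 0.11 that did not pass (limma adjusted p = 0.660, paired). Being lower in all 5 pairs, as Tbx21, Il18rap and Il12rb2 were, held for 9.66% of the 11846 genes tested, and being higher in all held for 10.03%.

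**Figure D3:**
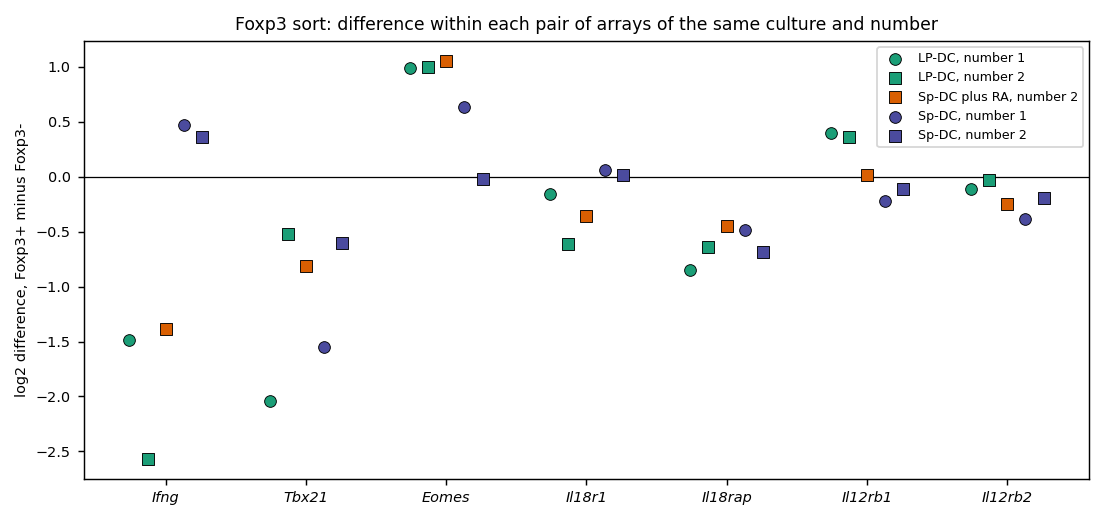
Log2 difference, Foxp3+ minus Foxp3- (y axis), within each of 5 pairs of arrays of the same culture and number, for each Th1 gene (x axis). Tbx21 and Il18rap lie below 0 in all 5 pairs, Eomes lies above 0 in 4, and Ifng lies below 0 with LP-DC and Sp-DC plus RA and above 0 in both Sp-DC pairs.

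Effector genes known from Th1 and tissue-homing T cells moved both ways with the sort. Cxcr6, a chemokine receptor, differed by -3.56 between Foxp3+ and Foxp3- cells and Lta, which encodes lymphotoxin alpha, by 1.21, and both passed in both fits (unpaired limma adjusted p = 0.0257 and 0.0365). Cxcr3, the chemokine receptor that T-bet induces, was at -0.74, while Hopx (0.55) and Tnf (0.45) were higher in the paired fit, so that 3 of 11 tested effector genes rose and 2 fell. Of the interferon gamma list Gbp2 (0.59) and Socs3 (0.44) rose, 2 of 9 tested, of the IL-12 family Il6st (0.56), 1 of 7, and of the regulators of other lineages Ahr fell (-0.93), 1 of 8. No other Th1 regulator of 12 tested and no IL-18 or IL-1 gene of 8 passed. In the LP-DC culture alone the paired fit called Cxcr6 (-4.39), Lta (1.46), Cxcr3 (-1.07) and Hopx (0.93) of the effector list, Maf (-1.40) and Ahr (-1.16) of the regulators of other lineages, and Ebi3 (1.22), Gbp2 (1.21) and Batf (0.92), 1 of each remaining list but that of IL-18 and IL-1.

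The summed NK list was also lower in Foxp3+ cells. Its sums were 720 to 846 in Foxp3+ against 3952 to 4465 in Foxp3- cells with LP-DC, 841 to 1277 against 3582 with Sp-DC plus RA, and 762 to 1675 against 3306 to 4865 with Sp-DC. In the mean over cultures Klrd1 differed by -2.14 and Gzma by -2.86 (paired limma adjusted p = 0.000215 and 0.00698). Klra8, Prf1, Tyrobp, Fcer1g and the NK-defining Ncr1 of this list lay below the median on every array. Cd2, a T cell marker, was higher in Foxp3+ cells by 0.93 in the mean over cultures (adjusted p = 0.000983) and by 1.23 with LP-DC. The other T cell markers found were not called in the sort. With LP-DC, Cd4 had means of 9.31 in Foxp3+ and 9.34 in Foxp3- cells, Cd3e 10.96 and 11.16, and Cd3d 12.50 and 12.59. Cd3g had means of 10.88 and 11.16 there, and Cd28, the other way, 12.23 and 12.10. Cd8a was at -1.26 in Foxp3+ cells of the LP-DC culture (adjusted p = 0.0205). The other CD8 gene, Cd8b1, had a mean of 5.27 in both LP-DC fractions and lay below the median on every array. Cd8a was not lower in Foxp3+ cells of the other cultures. Its means were 5.83 against 5.81 with Sp-DC and 6.35 against 6.04 with Sp-DC plus RA. The part of other cell types in the sort differences was not tested.

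The replicate arrays of a group set how much can be seen. Between arrays 2 and 1 of the same group Ifng differed by 1.45 in LP-DC Foxp3- cells, 1.47 in Sp-DC Foxp3+ cells and 1.58 in Sp-DC Foxp3- cells, and Tbx21 by 1.29 in LP-DC Foxp3+ cells and 1.12 in Sp-DC Foxp3+ cells. Array 2 was higher for Il12rb1 in all 5 co-culture groups with 2 arrays, by 0.51 to 0.63. Such a common shift is what the paired fit takes out, and the Il12rb1 difference between LP-DC and Sp-DC Foxp3- cells had an SE of 0.12 in it. Il18r1 had no common shift, with differences of 0.08 and 0.12 in the Sp-DC groups, 0.46 in LP-DC Foxp3+ cells, 0.92 in LP-DC Foxp3- cells and -0.43 in Sp-DC plus RA Foxp3+ cells.

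The 2 probe sets of Eomes ranked the means of all 8 groups in the same order, and those of Il18rap gave the same rank to 5 of the 8. On the second probe set Eomes ran from 4.88 to 7.80 and on the representative one from 5.50 to 9.74, with the Sp-DC Foxp3+ group highest and the memory groups lowest on both. For RA in Foxp3+ cells they gave -1.49 and -2.22, and for LP-DC over Sp-DC plus RA 0.84 and 1.81, so the second gave the smaller difference both times. For Il18rap, RA in memory cells gave 0.34 on the second and 0.09 on the representative probe set, and the sort with Sp-DC plus RA gave 0.03 and -0.23 in the paired fit, opposite in sign, and neither passed (limma adjusted p = 1.00 for both).

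**Figure D4:**
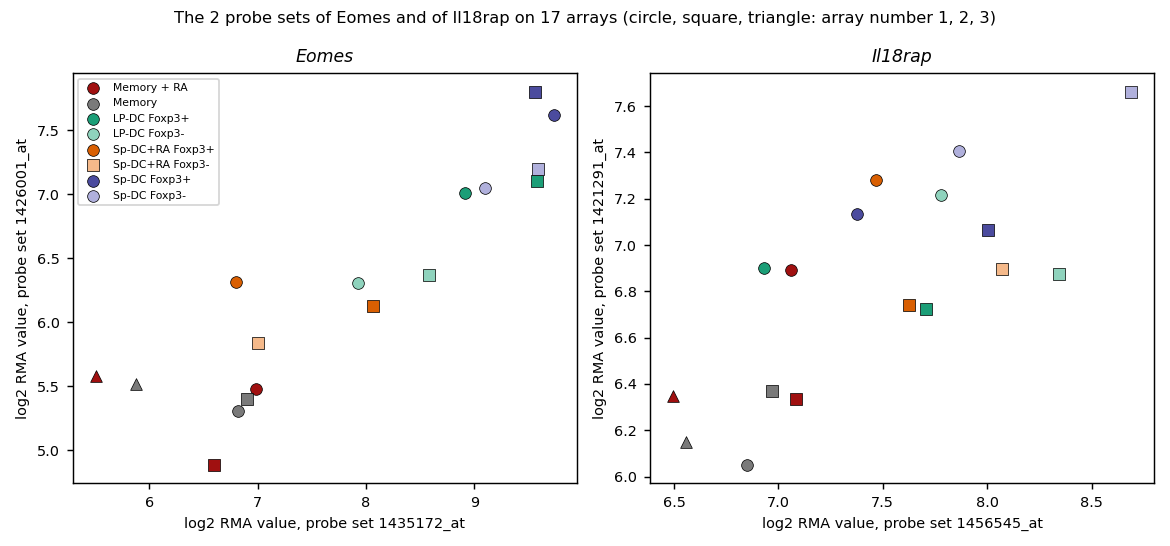
Log2 RMA values of the 2 probe sets of Eomes (left) and of Il18rap (right) on 17 arrays, one probe set on each axis, coloured by group, with the symbol giving the array number. Both Eomes probe sets have their highest group mean in Sp-DC Foxp3+ cells, 7.71 on the second and 9.65 on the representative one, and the Il18rap probe sets give the same rank to 5 of the 8 group means.

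How the members vary together was described by Pearson's r over the 17 arrays, with each gene centred on its mean within each experiment. These arrays share groups and numbers, so r is a description and carries no p. The highest values among the 21 pairs were 0.72 for Tbx21 and Il12rb2, 0.69 for Tbx21 and Il18rap, 0.69 for Eomes and Il18r1, and 0.65 for Ifng and Tbx21. Of these, Tbx21 and Il18rap went opposite ways in the 2 experiments, with -0.50 over the memory and 0.82 over the co-culture arrays. The others were positive in both. The 2 T-box genes had an r of 0.31 with each other (-0.16 in memory, 0.36 in co-culture), and the 2 chains of the IL-18 receptor 0.25. Il12rb1 had an r of -0.13 with Il18r1 and 0.24 with Tbx21, but 0.47 with Il18rap and 0.56 with Il12rb2. The value with Il18r1 pools opposite directions, 0.85 over the memory arrays and -0.36 over the co-culture arrays.

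Among the 11425 other genes tested in both experiments, the 3 most like each member by the same measure were named. For Tbx21 they were Dap (0.92), Slc30a4 (0.91) and Prss16 (0.91), and for Ifng, Axin2 (0.80), Gcn1 (0.79) and S1pr4 (0.77), the lowest values of the 7. Eomes was most like Ifitm2 (0.92), Nuak2 (0.84) and Ifitm1 (0.83), and Il18r1 was most like Gpr15 (0.86), Ifitm1 (0.84) and Enc1 (0.83), so Ifitm1 stood on both lists. The likeness of Il18r1 to Gpr15 lay mostly in co-culture, with an r of 0.93 there and 0.28 over the memory arrays. Il12rb1 was most like Slc25a1 (0.94), Fdft1 (0.93) and Bsg (0.91). For Il18rap they were Cdt1 (0.90), 4930453N24Rik (0.88) and Usp48 (0.87), and for Il12rb2, Hid1 (0.87), Flot1 (0.87) and Tac4 (0.86).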

How the data were processed

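Each array measured RNA of 1 pool of cells by hybridisation to 45101 Affymetrix mouse probe sets. Per the labels' protocols RNA was amplified in 2 rounds, and the deposited values are RMA intensity values on the linear scale, computed by the authors in GenePattern. Neither the RMA version nor whether the arrays were summarised in 1 run is stated in the labels used here. RMA levels arrays to a common distribution, so it can hide a shift of all genes. The values ran from 4.06 to 27165, and their log2 was taken without a pseudocount. No columns were identical and none was left out. A second array of Foxp3- cells from Sp-DC plus RA was not analysed here. Where a source label and a title disagreed on the Foxp3 fraction, the title and the sort after culture were used.

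Probe sets with 1 symbol in the platform table (34958) were used, those with several (932) or none (9211) were not. The probe set with the highest mean over 17 arrays represents a gene, cross-hybridising ones (2441 probe sets) being passed over where another exists. The genes that exceeded an array's median on 2 or more arrays were tested, 12062 in memory, 11846 in co-culture and 11432 in the joint fit. Tests used limma 3.58.1 (R 4.3.3) with 1 coefficient per group, and p-values were adjusted by Benjamini-Hochberg over the whole table at a threshold of 0.05. The unpaired fits had 4, 5 and 9 residual degrees of freedom in the memory, co-culture and joint fits, the paired ones 2, 4 and 6. The array number was taken as a pairing because all memory pairs of equal number deviated together, with r of at least 0.65, although memory arrays numbered 1 and 2 correlated as highly across numbers (0.65 and 0.79). The number of arrays limits precision. Scripts were tested on simulated data.

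All 7 members are named, and a second probe set is named where it passed. Listed pathway genes are named where they passed, up to 4 per list and comparison by size, and the 3 genes most like each member are named. The members, lists, tests and markers were chosen with earlier results of these data known. Alternatives were quantile normalisation, median-centring, other filters, a pseudocount of 32, the mean of all probe sets, trended variance, 1 fit over all arrays, and leaving out arrays.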

Additional observations from a re-analysis of the deposited data

Results flagged for a closer look

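Eomes differed in its response to RA between memory cells and Foxp3+ cells. These come from 2 experiments that also differ in TGFbeta dose, IL-2, stimulus and time, which cannot be told apart from cell type. The difference of the 2 responses was 2.05 ± 0.32 on the log2 scale, with limma adjusted p-values of 0.00671 in the paired and 1.00 in the unpaired fit, and it was marked because this test of the difference itself passed in the paired fit. On the memory arrays numbered 3 Eomes lay under the array median. Klrd1 of the NK list differed by 2.29 between the same responses (paired limma adjusted p = 0.00180), while Gzma of that list ran the other way. Gzma means with and without RA were 7.34 and 7.38 in memory cells and 9.05 and 7.57 in Foxp3+ cells. The list's part was not tested. Ifng was marked because the LP-DC over Sp-DC difference went one way in every Foxp3+ pair (-0.99 and -2.08) and the other way in every Foxp3- pair (0.97 and 0.84). The interaction was -2.44 and did not pass in either limma fit (adjusted p = 0.521 paired, 1.00 unpaired), so the opposite directions are not shown to differ beyond the spread of the arrays.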

How the results depend on the processing

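The count of members called was 0 in all 14 comparisons of the unpaired fit. With the replicate block it was 2 for RA in memory cells, for the mean sort, for the LP-DC sort, for RA in Foxp3+ cells and for LP-DC over Sp-DC plus RA in Foxp3+ cells. It was 1 for RA in Foxp3- cells, for LP-DC over Sp-DC in Foxp3- cells, for LP-DC over Sp-DC plus RA in Foxp3- cells and for RA in memory against Foxp3+ cells, and the block changed no other count. The mean of all probe sets called 1 member without the block, Eomes for RA in Foxp3+ cells (-1.85, limma adjusted p = 0.0309). The remaining unpaired alternatives called 0, as did each unpaired fit without 1 array.

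The following alternatives of the paired fit, other than the fits without 1 array, were chosen after seeing the data. Leaving out both memory arrays numbered 3 left 1 call, Ifng. In the LP-DC sort quantile normalisation and a pseudocount of 32 each left 1 call, and 1 fit over all 17 arrays gave 4. That joint fit also gave 1 call for LP-DC over Sp-DC in Foxp3+ cells (Ifng), and 2 each in Foxp3- cells for LP-DC over Sp-DC and over Sp-DC plus RA. Paired fits without 1 array gave 1 to 3 calls for RA in memory cells, for the mean sort and for RA in Foxp3+ cells, 1 for the LP-DC sort and for the interaction with memory cells, 0 for RA in Foxp3- cells, 0 to 2 for LP-DC over Sp-DC plus RA in Foxp3+ cells, and 0 to 1 for both LP-DC comparisons in Foxp3- cells. The causes were not tested. No called difference changed sign under any alternative run. Signal over background limits Ifng and Tbx21 in LP-DC and Sp-DC plus RA Foxp3+ cells, where values lie near or under the array medians. The same holds for Il12rb2 in the memory, LP-DC and Sp-DC plus RA groups. It also limits Eomes in memory cells, where the arrays numbered 3 read 5.50 with RA and 5.88 without, under their medians. The second Eomes probe set lay under the median on every memory array.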
